A study of Mus musculus with 42 samples.

Results

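Tshr and Cep128 are neighbouring genes on mouse chromosome 12, and they are 2 of the 24466 gene symbols counted in each RNA-seq library. They were chosen by their position near Pax7 binding sites and by their lower counts after Dox withdrawal in the same libraries. The fall after withdrawal is therefore a description here and was not tested. RNA was counted in 3 libraries of iPax7 cells with doxycycline (+Dox), 2 libraries of iPax7 cells after 3 days without it (-Dox) and 3 libraries of satellite cells.

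iPax7 cells are mouse embryonic stem cells carrying a Pax7 gene that is switched on by 0.75 µg/ml doxycycline, differentiated into embryoid bodies, sorted as PDGFRα+Flk-1- precursors and expanded with Dox. Both the +Dox and the -Dox cells carry the inducible gene, and the -Dox cells had been exposed to Dox before it was removed. Chromatin was also profiled at 12 h and 24 h without Dox, in myotubes made from iPax7 cells, and in C2C12, an established mouse myoblast line, as plain myoblasts, as myotubes, and as stable lines carrying a retrovirus for Flag-tagged Pax7 (Pax7-flag) or for the Flag tag alone (flag control). Satellite cells were sorted from Pax7-ZsGreen reporter mice, whose age and number are not given in the sources used here. Forced Pax7 in both the iPax7 and the Pax7-flag cells limits what they model, and the satellite cells came from muscle whereas the other cells were grown in culture. Nothing in the labels says whether libraries of a group came from separate cultures or animals, so each p-value measures only the spread between these libraries.

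Tshr encodes the thyrotropin receptor, a G protein-coupled receptor with a leucine-rich extracellular domain. It binds thyrotropin from the pituitary, couples mainly to Gs and raises cyclic AMP, and is best known from thyroid follicle cells. Cep128 encodes a coiled-coil protein of the subdistal appendages, structures on the mother centriole that anchor microtubules. Pax7 is a paired-box and homeodomain transcription factor that marks satellite cells, the stem cells of skeletal muscle.

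On NCBIM37 (mm9) with the GENCODE M1 annotation, Cep128 runs on the minus strand from 92236932 to 92622849 and has 26 exons. Tshr runs on the plus strand from 92639433 to 92778949 and has 10 exons. The starts face away from each other across 16.58 kb, and the pair spans 542 kb. Of the 2455 Pax7 sites called in +Dox cells, 123 lie on chromosome 12 and 5 lie within the pair. Site 1 (92304757 to 92305959) lies in intron 21 of Cep128, and site 2 (92543458 to 92544529) lies in its intron 10. Site 3 (92638693 to 92639905) spans the annotated start of Tshr. Site 4 (92651143 to 92651915) and site 5 (92726488 to 92727247) lie in intron 1 of Tshr, 12.1 kb and 87.43 kb beyond its start. The sites were 1203, 1072, 1213, 773 and 760 bases long in that order, against a median of 664 bases over all Pax7 sites. The nearest Pax7 sites outside the pair lie at 92184546 to 92185076 below Cep128 and at 93050930 to 93051620 above Tshr. The map of the locus places the genes, the sites and the peak lists along the span.

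**Figure D1:**
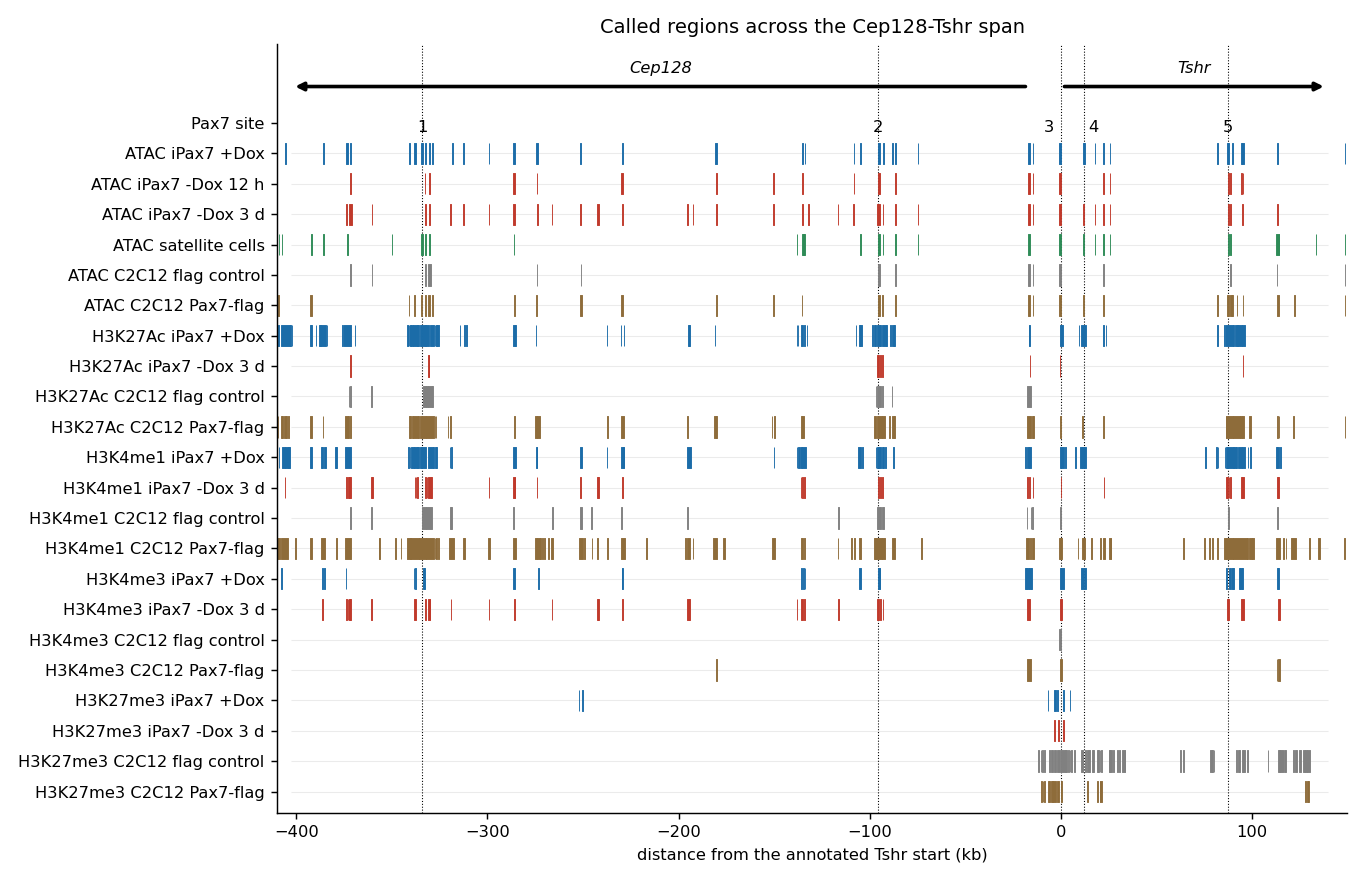
Regions of each peak list over the Cep128 and Tshr genes, 1 row per list, with the distance from the annotated Tshr start in kb on the horizontal axis, arrows for the genes in their direction of transcription, and dotted lines numbered 1 to 5 at the Pax7 sites. Regions of H3K27Ac filled 56.16 kb of the 542 kb span in +Dox cells and 3.247 kb in -Dox cells, and H3K27me3 of the flag control lay over Tshr and the stretch before it.

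The sequence at the centre of each site is printed because the site was the unit in which Pax7, accessibility and histone marks were compared. The sequences are read 5′ to 3′ from the plus strand of NCBIM37, as 300 bases around the site's centre. For site 3 the window was stopped at the base before the Tshr start and has 284 bases. Capitals mark the homeodomain core TAAT or its reverse complement ATTA.
Site 1, chr12:92305208-92305507: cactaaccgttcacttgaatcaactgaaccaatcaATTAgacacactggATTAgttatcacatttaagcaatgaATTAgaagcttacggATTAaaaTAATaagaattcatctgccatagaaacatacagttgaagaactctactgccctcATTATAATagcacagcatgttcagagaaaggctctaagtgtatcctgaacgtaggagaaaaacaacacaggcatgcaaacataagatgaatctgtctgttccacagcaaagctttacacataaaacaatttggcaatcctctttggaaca
Site 2, chr12:92543844-92544143: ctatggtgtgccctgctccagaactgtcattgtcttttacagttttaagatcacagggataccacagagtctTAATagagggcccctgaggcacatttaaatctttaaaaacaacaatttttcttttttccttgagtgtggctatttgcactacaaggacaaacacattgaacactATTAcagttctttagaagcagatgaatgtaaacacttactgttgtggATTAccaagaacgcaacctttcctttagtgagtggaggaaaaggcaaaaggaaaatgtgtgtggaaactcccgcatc
Site 3, chr12:92639149-92639432: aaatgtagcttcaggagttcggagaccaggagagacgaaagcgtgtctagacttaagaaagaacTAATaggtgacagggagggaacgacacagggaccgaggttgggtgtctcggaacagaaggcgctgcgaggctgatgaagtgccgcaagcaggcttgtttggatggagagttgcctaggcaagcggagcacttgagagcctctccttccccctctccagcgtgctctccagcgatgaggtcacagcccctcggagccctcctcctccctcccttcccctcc
Site 4, chr12:92651379-92651678: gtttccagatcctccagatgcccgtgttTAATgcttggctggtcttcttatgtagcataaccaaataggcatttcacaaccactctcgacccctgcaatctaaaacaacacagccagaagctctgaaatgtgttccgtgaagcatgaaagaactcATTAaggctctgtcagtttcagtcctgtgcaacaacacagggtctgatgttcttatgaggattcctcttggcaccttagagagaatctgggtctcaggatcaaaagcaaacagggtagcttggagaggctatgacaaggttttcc
Site 5, chr12:92726718-92727017: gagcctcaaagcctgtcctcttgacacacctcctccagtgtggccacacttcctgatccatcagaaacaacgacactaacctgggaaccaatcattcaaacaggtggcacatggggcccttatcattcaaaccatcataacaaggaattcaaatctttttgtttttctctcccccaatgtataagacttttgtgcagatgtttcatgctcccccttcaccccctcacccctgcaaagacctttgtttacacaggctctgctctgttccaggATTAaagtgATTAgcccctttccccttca

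Site 1 was the most AT-rich of the 5 windows and site 3, at the Tshr start, the most GC-rich. GC content was 36.3, 39.7, 58.1, 45.7 and 47% from site 1 to site 5, against a median of 45.7% over all Pax7 sites. A TAAT core, searched on both strands, was present in 5 of 5 windows and in 82.8% of the windows of all 2455 sites. Over their whole length the sites held 16, 11, 4, 11 and 6 cores. The 2 palindromic arrangements of that core, TAATNNATTA and TAATNNNATTA, both of which contain it, were in 0 of 5 windows and in 1.02% and 1.71% of all windows. GTCACGC, letters typical of paired-domain sites, was in 0 of 5 windows and in 3.22% of all windows. The E-box CANNTG, the letters recognised by MyoD-family factors, was in 5 of 5 windows and in 81.3% of all. These are letter matches in the windows searched and do not say whether any factor bound.

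RNA-seq libraries held 39010958 to 54674619 counts on genes. Reads not placed uniquely were 23.58 to 30.68% of the total in satellite libraries and 7.112 to 7.604% in iPax7 libraries. Pax7, the gene controlled by Dox, had 12759, 14130 and 11610 normalized counts in +Dox, 221 and 270 in -Dox, and 8504, 3926 and 5456 in satellite cells. Normalized counts are counts scaled for library size and composition (TMM). Of 9 satellite cell markers, all were counted in the satellite libraries, where their summed level was 753633 to 1200582 normalized counts, against 188210 to 266588 in +Dox. Much of the satellite sum was Sdc4, with a mean of 654640 there and 45891 in +Dox. The markers did not all differ alike. The defining markers Calcr and Chodl had 3 and 26 counts in all 3 +Dox libraries together. Pax7 and Myf5 had higher means in +Dox than in satellite cells, 143916 ± 41178 against 122739 ± 17939 (SD, n = 3) for Myf5. The other 7 had higher means in satellite cells. Markers of differentiated myocytes summed to 1468133 to 1486853 in -Dox, against 6592 to 7843 in +Dox.

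Tshr was low in -Dox, intermediate in +Dox and high in satellite cells. The +Dox libraries had 826, 753 and 561 counts, or 620, 558 and 511 normalized counts. The -Dox libraries had 71 and 78 counts, or 65.2 and 72 normalized counts. The satellite libraries had 2170, 1594 and 2323 counts, or 2857, 2137 and 3064 normalized counts. No group overlapped its neighbour in that order. The mean was 68.6 ± 4.77 (SD, n = 2) without Dox, 563 ± 55 (SD, n = 3) with Dox and 2686 ± 487 (SD, n = 3) for satellite cells. The +Dox mean was 8.2 times the -Dox mean. The log2 change on withdrawal was -3.03 with a standard error of 0.366, and 960 of the 14836 genes tested had a lower one. In bulk RNA, fewer cells expressing a gene and less RNA per cell cannot be told apart.

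Cep128 followed the same order of groups. The +Dox libraries had 2167, 2196 and 1547 counts, or 1628, 1626 and 1409 normalized counts. The -Dox libraries had 87 and 3 counts, or 80 and 2.77 normalized counts. The satellite libraries had 3379, 2994 and 2560 counts, or 4448, 4013 and 3376 normalized counts. No group overlapped another, but the -Dox pair lay far apart. The mean was 41.4 ± 54.6 (SD, n = 2) without Dox, 1554 ± 126 (SD, n = 3) with Dox and 3946 ± 539 (SD, n = 3) for satellite cells. The +Dox mean was 37.6 times the -Dox mean, and the log2 change was -5.23 with a standard error of 0.999. Against the first -Dox library alone the +Dox mean was 19.4-fold higher. Against the second, with 3 counts, it was 561-fold higher, with a 95% counting interval of 192 to 2721 that covers counting error only.

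The -Dox libraries lay close together for Tshr and far apart for Cep128. Their log2 gap was 0.138 for Tshr and 4.12 for Cep128, against a median of 0.281 over all genes tested. A gap as large as that of Cep128 was found in 2.48% of the 14836 genes. Among the 1522 genes with a -Dox mean of 20 to 80 normalized counts, 274 had a gap as large and the median was 1.18. The standard error of the Cep128 change, 0.999, was accordingly larger than that of Tshr, 0.366.

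**Figure D2:**
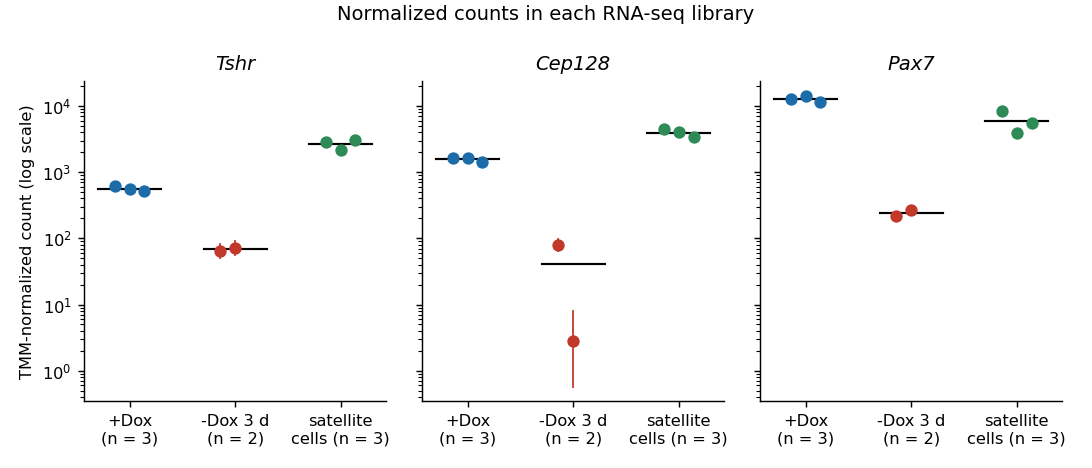
Each point is 1 library, with TMM-normalized counts on a log axis for Tshr, Cep128 and Pax7, horizontal lines at the group means and vertical lines for the 95% Poisson interval of the count where it is wider than the point. For both Tshr and Cep128 the -Dox points lie lowest and the satellite points highest, and the -Dox libraries of Cep128 stand at 80 and 2.77.

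The 3-group order without overlap, -Dox under +Dox under satellite cells, was shown by 4.33% of all genes. The step used in the choice, every -Dox library under every +Dox library, was shown by 22.7%. The other step, every satellite library above every +Dox library, was shown by 30.2%.

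Per kilobase of exon the levels of the neighbours were alike in +Dox. Union exons measured 4.874 kb for Tshr and 11.59 kb for Cep128. On this scale Tshr had 116 ± 11.3 (SD, n = 3) and Cep128 134 ± 10.9 (SD, n = 3) normalized counts per kb in +Dox. In satellite cells Tshr had 551 ± 99.8 and Cep128 340 ± 46.5 per kb (SD, n = 3). In -Dox Tshr had 14.1 ± 0.979 and Cep128 3.57 ± 4.71 per kb (SD, n = 2). The per-kb ratio of Cep128 to Tshr was 1.1, 1.23 and 1.16 in the +Dox libraries, 0.515 and 0.0162 in the -Dox libraries, and 0.655, 0.79 and 0.463 in the satellite libraries. Per kb the order of the genes was thus Cep128 over Tshr in every +Dox library and Tshr over Cep128 in every other library. This order depends on the exon lengths used, and the annotation used in counting is not given in the sources used here. The ratio of raw counts, Cep128 to Tshr, was 2.62, 2.92 and 2.76 in +Dox, 1.23 and 0.0385 in -Dox, and 1.56, 1.88 and 1.1 in satellite cells.

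Satellite cells were compared with +Dox cells, a contrast the choice did not use, although the +Dox libraries took part in the choice. Tshr was 4.77 times as high in satellite cells as in +Dox. Its log2 difference was 2.25 with a standard error of 0.298 (adjusted p = 0.000365, quasi-likelihood test of edgeR, Benjamini-Hochberg). All 3 satellite libraries lay above all 3 +Dox libraries, for which the exact permutation test gave a two-sided p of 0.1, the smallest that 3 against 3 allow. In the same fit 25.1% of all genes were called higher in satellite cells and 19.8% lower, and 3158 genes had a larger log2 difference than Tshr.

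Cep128 was 2.54 times as high in satellite cells as in +Dox, also with 3 of 3 libraries above all +Dox libraries (exact permutation test, two-sided p = 0.1). Its log2 difference of 1.34 had a standard error of 0.699 and did not pass the test (adjusted p = 0.143, quasi-likelihood test of edgeR, Benjamini-Hochberg). It passed in a fit of only the +Dox and satellite libraries (1.28, adjusted p = 0.00573). It also passed with either -Dox library left out, with adjusted p-values of 0.0065 without the first and 0.00736 without the second. The difference in size between the Tshr and the Cep128 contrast was not tested. Satellite means stood at 39.1 times the -Dox mean for Tshr and 95.4 times for Cep128.

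Markers of other cell types moved with the satellite contrast, in which 25.1% of all genes were called higher and 19.8% lower. All 4 endothelial markers were called higher in satellite cells, and their summed level was 9041 to 14494 normalized counts there, 0 to 0.911 in +Dox and 0.919 to 21.2 in -Dox. Fibro-adipogenic progenitor markers summed to 41065 to 62138 in satellite cells and 2675 to 9745 in +Dox, with 3 of 4 called higher. The +Dox sum was mostly Ly6a, the marker not called, with a mean of 5063 in +Dox and 2623 in satellite cells. Leukocyte markers summed to 1312 to 3402 in satellite cells and 158 to 464 in +Dox, with 3 of 4 called higher. Adipocyte markers were at 0 in every iPax7 library and at 0 to 612 in satellite cells. The 2 of them that were tested passed the filter through the satellite libraries alone, so their calls could only be higher. Cdh5 and Ptprc, defining markers of endothelium and leukocytes, and Cd3e were at 0 in every iPax7 library, so the direction of their calls was fixed in the same way. Kdr and Csf1r were at 0 in +Dox, and Pecam1, Tie1 and Pdgfra had 1, 1 and 2 counts in the +Dox libraries together. These genes also passed the filter through the satellite libraries, so their calls too could only be higher. The part of these cells in the satellite levels of Tshr and Cep128 was not tested.

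The 6 genes listed as chromosome 12 neighbours had log2 changes from -2.22 for Dio2 to 1.3 for Flrt2 on Dox withdrawal. Among the nearest annotated genes on either side of the pair, only Gtf2a1 and Ston2 were tested, with changes of 0.0244 and 0.129. Of 6 tested neighbours within the list (Nrxn3, Dio2, Gtf2a1, Ston2, Sel1l and Flrt2), 0 were called in either direction by edgeR (1 had an unadjusted p under 0.05, and DESeq2 called 1), against 4.66% of all genes higher and 3.04% lower. The median log2 change of the 6 was 0.0766, against -0.00492 over all genes tested. Gtf2a1, a general transcription factor subunit whose gene lies 15.4 kb beyond the end of Tshr, stood at 15929 ± 3875 (SD, n = 3) with Dox and 16201 ± 1155 (SD, n = 2) after its removal. Ston2, an endocytic adaptor gene 98 kb beyond, had 110 and 120. In satellite cells 2 of the 6 were called higher than in +Dox and 2 lower, against 25.1% and 19.8% of all genes. Ston2 rose by 4.12 on the log2 scale (adjusted p = 0.0042) and Dio2, the deiodinase that activates thyroid hormone, by 3.82 (adjusted p = 0.011). Nrxn3, a synaptic adhesion gene, fell by 9.65 (adjusted p = 4.71e-05) and Gtf2a1 by 0.85 (adjusted p = 0.0262; edgeR's quasi-likelihood test). Sel1l and Flrt2 did not pass. The transcript 5430427M07Rik, annotated on the plus strand inside Cep128 at 92288809 to 92318347, had 0 counts in every iPax7 library and 22, 0 and 8 in satellite cells. Whether strand was kept in counting is not given in the sources used here, so reads of overlapping genes on opposite strands may not be separable.

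The genes of the hormone itself had few counts in any library. Cga, the shared alpha subunit of the pituitary glycoprotein hormones, had 0 counts in all 8 libraries. Tshb, the thyrotropin beta subunit, and Gphb5, a subunit of thyrostimulin, had 0 counts in iPax7 cells and 8 and 34 in the 3 satellite libraries together. Gpha2, the other thyrostimulin subunit, was the 1 ligand gene of 4 tested and was not called in either contrast. Of 10 listed genes of thyroid follicle cells 5 could be tested, and the transcription factors Pax8, Nkx2-1 and Foxe1 had 0 counts in every library. On withdrawal 0 of the 5 were called by edgeR or DESeq2, and 0 had an unadjusted p under 0.05. In satellite cells Hhex, a homeobox gene of thyroid and endothelium among others, was higher by 7.03 (adjusted p = 0.012) and Tg (thyroglobulin) was lower by a log2 difference of -3.69 (adjusted p = 0.00977, quasi-likelihood test of edgeR). Tg stood at 770 ± 312 (SD, n = 3) with Dox against 59.4 ± 68.9 (SD, n = 3) for satellite cells.

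Among 7 receptors related to Tshr by their leucine-rich domains, 3 were tested and 0 were called by edgeR on withdrawal, with 1 at an unadjusted p under 0.05 and 1 called by DESeq2. Lhcgr and Rxfp2 had 0 counts in all libraries. Fshr, the follitropin receptor, had 26 counts in -Dox and 0 elsewhere. Lgr4, a receptor for R-spondins, was higher in satellite cells than in +Dox by 2.04 on the log2 scale (adjusted p = 0.00138), with 11199 ± 3376 against 2732 ± 1061 normalized counts (SD, n = 3). Lgr6, of the same subfamily, had 95 counts in the 3 +Dox libraries together and 0 in satellite cells (adjusted p = 0.0201, quasi-likelihood test of edgeR).

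Of the genes that act downstream of the receptor, 22 were tested. On withdrawal 0 rose and 2 fell, against 4.66% and 3.04% of all genes, with a median log2 change of -0.376 (-0.00492 over all genes). Pde4d, a cyclic AMP phosphodiesterase, fell by 1.49 (adjusted p = 0.0157), from 4559 ± 1219 (SD, n = 3) to 1626 ± 102 (SD, n = 2). Rapgef4, a cyclic AMP-activated exchange factor for Rap1, had 68 counts in +Dox and 0 in -Dox (adjusted p = 0.0493, edgeR's quasi-likelihood test). Its call was lost in 11 of the alternative fits described below, and that of Pde4d in 4. In satellite cells 10 of the 22 were called higher than in +Dox and 2 lower, against 25.1% and 19.8% of all genes, with a median of 1.05 against 0.174 over all genes. Pde4b, another phosphodiesterase, was at 145367 ± 11526 against 1346 ± 145 (SD, n = 3), a log2 difference of 6.75 (adjusted p = 1.13e-06). Crem, a cyclic AMP-responsive transcription factor, was higher by 3.44 (adjusted p = 0.000102) and Gnas, which encodes Gs alpha, by 1.81 (adjusted p = 0.000243). The others called higher were Pde4d, Adcy7, Rap1a, Adrbk1, Arrb1, Gnaq and Prkar1a, by 0.87 to 2.69. Gna11 and the protein kinase A regulatory subunit Prkar2b were lower, by log2 differences of -0.86 and -1.38 (all from edgeR's quasi-likelihood test).

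Of 5 tested genes that carry, activate or bind thyroid hormone, 4 were called higher in satellite cells and 0 lower, against 25.1% and 19.8% of all genes, with a median log2 difference of 3.82 (0.174 over all genes). The transporter Slc16a10 was higher by 5.25 (adjusted p = 0.00638) and the receptor Thra by 3.19 (adjusted p = 0.00104, quasi-likelihood test of edgeR). The receptor Thrb had 0 counts in all iPax7 libraries and 792 in the 3 satellite libraries together. Thrb passed the filter through the satellite libraries alone, so its call, 1 of the 4, could only be higher. Dio2, also listed as a neighbour, was the other gene called. On withdrawal 0 of the 5 were called by edgeR, 1 had an unadjusted p under 0.05 and DESeq2 called 1, with a median of 0. Setting genes with a group at 0 to a floor of 3 counts per library left these medians as given.

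The centriole lists begin with the subdistal appendage, where the Cep128 protein sits. Of 9 tested, 0 passed in edgeR on withdrawal, against 4.66% of all genes higher and 3.04% lower. Of the 9, 2 had an unadjusted p under 0.05 and DESeq2 called 1, with a median of -0.487. Odf2, a scaffold of the appendages, stood at 4728 ± 1611 (SD, n = 3) with Dox against 2600 ± 49.2 (SD, n = 2) after its removal and did not pass (adjusted p = 0.255, edgeR). In satellite cells 0 were called higher and 1, Odf2, lower, against 25.1% and 19.8% of all genes. Odf2 had a log2 difference of -1.03 (adjusted p = 0.0403, edgeR), and the list median was -0.298. Of 8 tested distal appendage genes 0 were called on withdrawal by edgeR or DESeq2, and 2 had an unadjusted p under 0.05 (median -0.774). In satellite cells 3 were called higher and 1 lower, against 25.1% and 19.8% of all genes, with a list median of -0.369. Cep83, Lrrc45 and Ttbk2 had log2 differences of 1.37, 1.89 and 2.61 and Cep89 had -1.84 (adjusted p from 0.00162 to 0.0265, edgeR).

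Of 20 tested genes of the centriole core and its duplication, 0 rose on withdrawal and 4 fell, against 4.66% and 3.04% of all genes, with a median of -0.601. These were Plk4, the kinase that starts centriole duplication (-2.3, adjusted p = 0.0202), its partner Stil (-4.09, adjusted p = 0.00485), the cartwheel protein Sass6 (-2.13, adjusted p = 0.0431) and Poc1a (-2.93, adjusted p = 0.0211, quasi-likelihood test of edgeR). Alternative fits lost the call of Plk4 in 4 cases, Stil in 1, Sass6 in 6 and Poc1a in 4. In satellite cells 0 were called higher and 10 lower, against 25.1% and 19.8% of all genes, with a median of -1.16, the extremes being Tubg1 (-3.18) and Poc1a (-3.05). Of 6 tested proliferation genes, 5 fell on withdrawal (3.04% of all genes were called lower) with a median of -3.39, among them Mki67 (-4.18, adjusted p = 0.00802, edgeR), and 5 were lower in satellite cells (19.8% of all genes) with a median of -4.42. Markers of differentiated myocytes moved the other way, with 5 of 5 higher on withdrawal (4.66% of all genes were called higher). The part of cell division or of differentiation in the fall of Cep128 and Tshr was not tested.

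**Figure D3:**
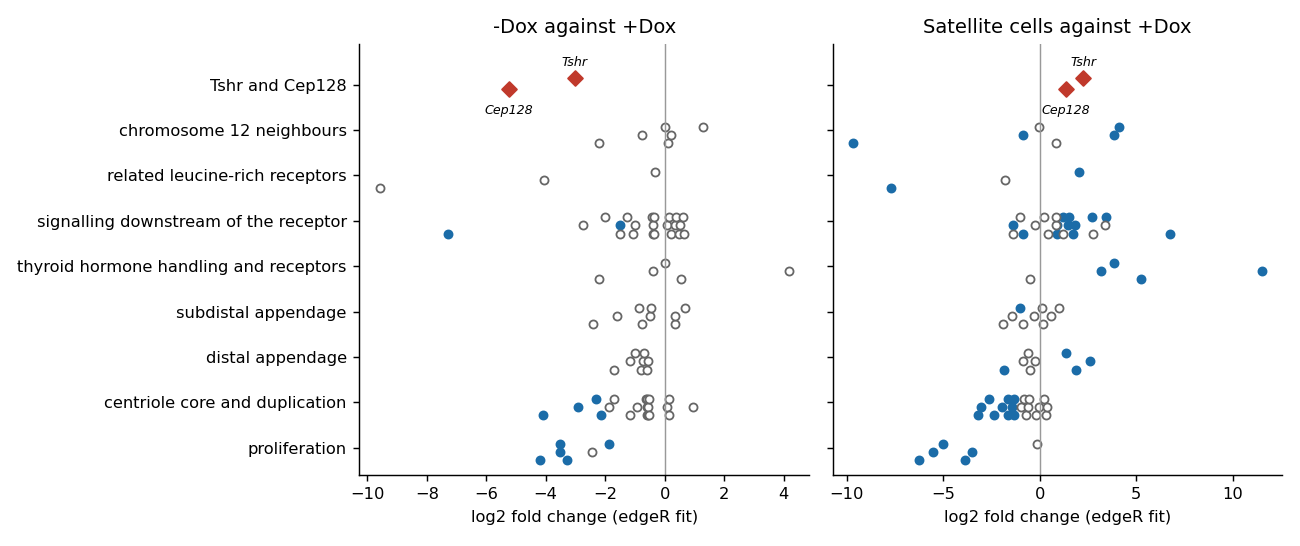
Each circle is 1 tested gene of a list, with its log2 fold change on the horizontal axis for -Dox against +Dox (left) and satellite cells against +Dox (right), filled where the adjusted p was under 0.05 and open where it was not, and diamonds are Tshr and Cep128 whatever their test. In both panels 5 of the 6 proliferation genes are filled and below 0, and on the right 4 of the 5 thyroid hormone genes are filled and above 0.

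The genes whose level over the 8 libraries was most like that of Tshr, by Pearson r of log2 CPM (library-scaled counts, prior count 2), were Pcdhga8 (0.9979), Pcbp3 (0.9904), Prex1 (0.9902), Sfxn2 (0.9893) and Tagln2 (0.9873). For Cep128 they were Rap1gds1 (0.9856), Pold3 (0.9839), Gm7694 (0.9827), Rasgef1b (0.9815) and 9530077C05Rik (0.9803). The members had r = 0.895 with each other. Cep128 ranked 492 among 14835 genes for likeness to Tshr, and Tshr ranked 137 for likeness to Cep128. The libraries fall into 3 groups, so these values largely reflect differences between groups, and for Cep128 the log2 gap of 4.12 between its -Dox libraries also enters. An r does not measure size. Rap1gds1 had log2 changes of -0.682 on withdrawal and 0.0762 in satellite cells, against -5.23 and 1.34 for Cep128.

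Chromatin over the locus was described from 1 peak list per condition, called on merged replicates, so there is no spread between replicates and no test. A peak that is not in a list was not called at that list's depth, which is unknown. In +Dox cells an ATAC-seq peak, a region where the transposase Tn5 reached the DNA, covered a part of all 5 Pax7 sites, as it did for 95.4% of the 2455 sites. Fold enrichment over background, the authors' peak height, was 38.3, 62.8, 28.1, 29.1 and 21.8 from site 1 to site 5.

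After Dox withdrawal the peaks at sites 1 and 4 were no longer listed, while those at sites 2 and 3 were listed at every time. At 12 h the fold enrichment was 25.9 at site 2, 13.2 at site 3 and 5.49 at site 5. At 24 h it was 44.5, 27.1 and 6.91, and at 3 days 60.9, 35.6 and 5.83 at these sites. Site 4 had a peak of 2.31 at 3 days, and site 1 had none at any of the 3 times. Peaks were thus at 3, 3 and 4 of the 5 sites, against 63.2, 63.4 and 68.0% of all Pax7 sites. A peak in +Dox that was missing at 12 h was found at 2 of 5 sites and at 32.3% of all. A peak in +Dox and at all 3 times was found at 3 of 5 and at 58.2% of all. Neither count stands far from the share over all sites.

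Relative to +Dox, the heights at sites 2 and 3 were lowest at 12 h and rose back with time. The ratios at site 2 were 0.413, 0.708 and 0.968 at 12 h, 24 h and 3 days, and those at site 3 were 0.47, 0.967 and 1.27. Medians over all Pax7 sites with both peaks were 0.367, 0.515 and 0.55. Site 5 stayed lower, at 0.252, 0.317 and 0.268, and site 4 stood at 0.0795 at 3 days. The peak at the Tshr start thus had no lower a listed height at 3 days without Dox than with it, and the RNA of -Dox cells at 3 days held 68.6 normalized counts of Tshr.

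Satellite cells had an ATAC-seq peak at all 5 sites, against 53.0% of all Pax7 sites. Fold enrichment was 4.1, 53.9, 29.1, 6.05 and 4.49 from site 1 to site 5. The ratios to +Dox were 0.858 at site 2 and 1.04 at site 3, and 0.107, 0.208 and 0.206 at sites 1, 4 and 5, with a median of 0.406 over all sites with both peaks. Sites 2 and 3 were thus near the +Dox height and the other 3 were lower.

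Among the C2C12 myoblast lists, sites 1, 4 and 5 had a peak in Pax7-flag alone, and sites 2 and 3 had one in each list. Pax7-flag myoblasts had a peak at all 5 sites, with fold enrichments of 14.2, 40.6, 24.3, 9.53 and 15.6, and 71.0% of all Pax7 sites had one. The flag control had peaks at sites 2 and 3 (29.2 and 11.5; 38.6% of all sites), as did plain myoblasts (13.6 and 3.72; 25.1% of all). A peak in Pax7-flag and none in either of the others was found at 3 of 5 sites and at 33.0% of all. C2C12 myotubes had peaks at sites 2 and 3 (13.9 and 10.1; 36.6% of all sites), and so did myotubes from iPax7 cells (12.5 and 23; 59.3% of all).

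Over the 10 ATAC-seq lists the 5 sites therefore fell into 2 kinds. Sites 2 and 3 had a peak in all 10 lists, a pattern of 20.2% of Pax7 sites. Sites 1, 4 and 5 had a peak in +Dox, satellite and Pax7-flag cells and none in the flag control, plain myoblasts or either myotube list, a pattern of 7.09% of Pax7 sites that was picked after its values were seen. Site 5 also had a peak at all 3 times without Dox, and site 4 at 3 days.

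**Figure D4:**
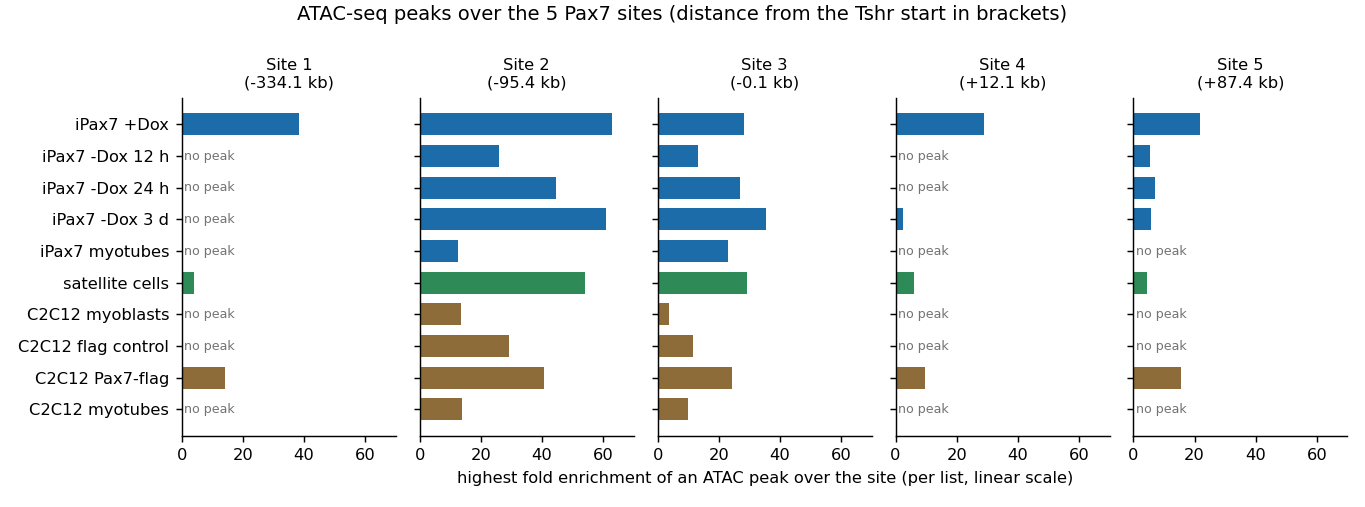
Bars give the highest fold enrichment of an ATAC-seq peak over each of the 5 Pax7 sites in the 10 merged lists, on linear axes from 0, with iPax7 lists in blue, satellite cells in green and C2C12 lists in brown. Sites 2 and 3 have a bar in all 10 lists, and site 1 has one in the +Dox, Pax7-flag and satellite lists.

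Over the whole span, 39 of the 116134 +Dox ATAC-seq regions lie within the pair of genes. Of the 39, 19 (48.7%) still had a peak at 12 h, 24 (61.5%) at 24 h and 27 (69.2%) at 3 days, against 65.4, 72.1 and 76.2% of all +Dox regions. In satellite cells 21 (53.8%) had a peak, against 40.4% of all. In Pax7-flag myoblasts 25 (64.1%) did, against 51.2%, and in the flag control 12 (30.8%), against 41.5%.

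H3K27Ac, an acetylation found at active promoters and enhancers, had the lowest ratio of -Dox to +Dox among the 4 marks over the span. In +Dox cells it covered 56.16 kb of the span and in -Dox cells 3.247 kb, a ratio of 0.0578, against a ratio of 0.673 over the genome. In Pax7-flag myoblasts it covered 51.73 kb and in the flag control 11.01 kb, a ratio of 4.7 against 1.34 over the genome. Within Tshr alone the covered length was 14.7 kb in +Dox and 0.261 kb in -Dox, and 13.1 kb in Pax7-flag and 0 in the flag control. Within Cep128 it was 40.7 and 2.42 kb, and 35.7 and 10.2 kb. The lists carry no height, so covered length is the only measure of the mark.

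At the Pax7 sites H3K27Ac regions touched 5 of 5 in +Dox (73.2% of all sites) and 2 of 5 in -Dox (37.9%). In the C2C12 lines they touched 5 of 5 in Pax7-flag (64.4%) and 2 of 5 in the flag control (40.6%). At site 4 the Pax7-flag region covered 2.98% of the site. H3K27Ac in +Dox and not in -Dox was found at 3 of 5 sites and at 36.8% of all, and in Pax7-flag and not in the control at 3 of 5 and at 24.9% of all. In the 20 kb around each site, H3K27Ac in +Dox covered 14, 9.21, 1.7, 2.99 and 9.96 kb from site 1 to site 5, against a median of 2.38 kb over all sites. In -Dox the same windows held 0.491, 1.73, 0.29, 0 and 0.261 kb, against a median of 0.3 kb. In Pax7-flag myoblasts they held 12.6, 7.79, 0.96, 0.423 and 9.11 kb (median 2.37 kb), and in the flag control 4.58, 3.57, 0, 0 and 0 kb (median 0.842 kb). Among the 5 windows, those of sites 1, 5 and 2 thus held more covered length than those of sites 3 and 4 in both +Dox and Pax7-flag cells.

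**Figure D5:**
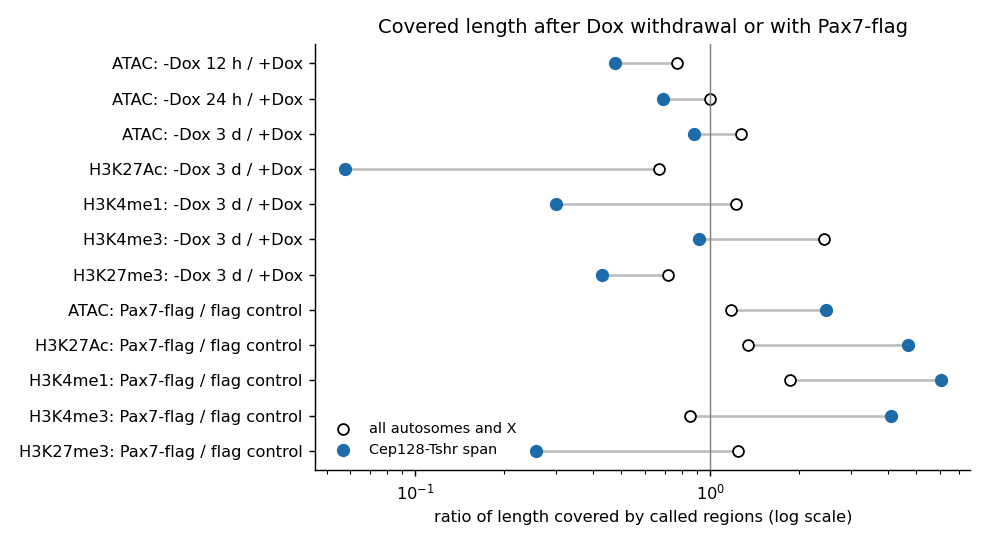
Ratio of the length covered by called regions, on a log axis, for -Dox over +Dox and for Pax7-flag over flag control, with filled points for the Cep128 to Tshr span and open points for all autosomes and X. The H3K27Ac ratio of the span stands at 0.0578 after withdrawal and at 4.7 with Pax7-flag, against 0.673 and 1.34 over the genome.

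H3K4me1, a methylation of enhancers and promoter flanks, followed the same direction. It covered 56.49 kb in +Dox and 17.02 kb in -Dox (ratio 0.301, against 1.22 over the genome), and 95.25 kb in Pax7-flag and 15.74 kb in the flag control (ratio 6.05, against 1.86). It touched 5 of 5 sites in +Dox (91.2% of all sites), 3 of 5 in -Dox (73.8%), 4 of 5 in the flag control (44.8%) and 5 of 5 in Pax7-flag (83.2%). H3K4me3, a mark of active promoters, covered 19.47 kb in +Dox and 17.86 kb in -Dox, a ratio of 0.917 against 2.44 over the genome. The -Dox list of that mark held 214172 regions and the +Dox list 94067. In the C2C12 lines it covered 4.954 kb in Pax7-flag and 1.204 kb in the control, a ratio of 4.11 against 0.856. It touched 4 of 5 sites in +Dox (66.3%), 3 of 5 in -Dox (75.6%), and 1 of 5 in both C2C12 lines (18.2% in the control and 22.0% in Pax7-flag).

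H3K27me3, the mark laid down by Polycomb complexes on silent genes, lay over Tshr and not over Cep128 in the C2C12 lines. In the flag control it covered 29.6 kb of Tshr, 21.2% of the gene, and 5.93 kb of the stretch between the genes, and 0 kb of Cep128. In Pax7-flag myoblasts it covered 3.37 kb of Tshr, 5.72 kb between the genes and 0 kb of Cep128. Over the span the ratio of Pax7-flag to control was 0.256, against 1.24 over the genome. In iPax7 cells the span held 3.371 kb in +Dox and 1.45 kb in -Dox (ratio 0.43, against 0.719). At the Pax7 sites it touched site 3 alone in each C2C12 line (6.48% of all sites in the control and 5.25% in Pax7-flag) and 0 of 5 in +Dox (4.97%) and in -Dox (3.30%).

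At the starts of the genes the same lists gave a peak in both iPax7 conditions. Both starts had an ATAC-seq peak within 1 kb in +Dox, at 3 days of -Dox and in satellite cells, as did 60.6, 63.1 and 56.2% of the 22350 protein-coding starts. Both had H3K27Ac in +Dox (45.9% of starts) and in -Dox (43.0%), and both had H3K4me3 (58.3 and 64.0%). The length of H3K27Ac was shorter in -Dox. Within 1 kb it covered 1509 bases at Tshr and 412 at Cep128 in +Dox, and 290 and 271 in -Dox. Within 250 bases it covered 501 and 257 in +Dox, and 32 and 18 in -Dox. H3K4me3 within 1 kb covered 1524 bases at Tshr and 1666 at Cep128 in +Dox, and 1092 and 1287 in -Dox. In the flag control the start of Cep128 had H3K27Ac (51.7%) and that of Tshr did not, and in Pax7-flag both did (52.7%). H3K4me3 was listed at the start of Tshr and not at that of Cep128 in the flag control (42.9%), and at both in Pax7-flag (35.7%). H3K27me3 was listed at the start of Tshr and not at that of Cep128 in both C2C12 lines (17.5 and 20.0% of starts). RNA of C2C12 cells was not analysed here, so these marks have no expression value beside them.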

How the data were processed

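RNA-seq reads were counted per gene symbol by the authors and deposited as raw counts, 1 file per library in the layout of HTSeq-count. The submitters' processing notes list TopHat2 2.0, HTSeq 0.6, Bowtie2 2.2 and 2.2.6, Trimmomatic 0.32, Picard, MACS2 2.0.10 and edgeR, and which of them served the RNA libraries, and whether strand was used, is not given in the sources used here. The 8 files comprise 3 +Dox, 2 -Dox and 3 satellite libraries, each set deposited under 1 sample. The authors' ATAC-seq lists, called with MACS2 on merged replicates after the Tn5 offset, give for each peak a fold enrichment (ratio over background) and −log10 p-values and q-values, of which the fold was used. The deposited histone and Pax7 lists hold regions without a score, called with Qeseq on mm9, and a Pax7 site was a peak found in several +Dox samples and in no -Dox replicate. Inputs, the histone lists of iPax7 myotubes and the -Dox Pax7 sample were not used here. The read depth of the peak lists is unknown.

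The members and the gene lists were chosen with earlier results of these data known. Counts were fitted in edgeR 4.0.16 (R 4.3.3) with TMM, filterByExpr (14836 genes), 1 mean per condition over all 8 libraries and the quasi-likelihood test, adjusted by Benjamini-Hochberg over all genes tested. A gene was called at an adjusted p under 0.05, with no fold minimum. Genes at or near 0 outside a single group, such as Thrb, Hhex and Lgr6, passed the filter through that group. The direction of their calls was therefore fixed. Normalized counts are counts over the effective library size, multiplied by a common factor. DESeq2 1.42.0 gave an alternative. The fits were tested on simulated data with known answers. Rows of reads without a gene stayed out of library sizes: reads assigned to more than 1 gene were 1.514 to 2.32% of the total. Counts of libraries in 1 group differed by more than sampling noise (chi-square per degree of freedom 47.94 to 427.7), so each was kept as its own library. Same-numbered libraries did not deviate together (r from -0.0487 to 0.0333), so the numbers were not used as pairs.

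Named genes were the members, Pax7, listed genes that were called (where none was, those of highest mean level), annotated neighbours on chromosome 12, and the 5 genes most like each member. Of 133 listed genes 112 were tested, and some listed genes are not reported here. Beyond this rule, listed genes at 0, genes naming the extremes and further listed members were named after their values were seen. A Pax7 site or start counted as having a peak with an overlap of at least 1 base. Alternatives were DESeq2, other filters, fits of 2 conditions, the replicate block, leaving out each library, a cover of 50% of the site, sites widened by 500 bases, starts within 250 bases, and the stronger peaks alone.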

Additional observations from a re-analysis of the deposited data

How the results depend on the processing

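Tshr in satellite cells against +Dox passed under every alternative, with log2 differences of 2.15 to 2.4 and adjusted p-values up to 0.00553 (edgeR or DESeq2). Cep128 passed under 4 of 14 (edgeR): 1.28 (adjusted p = 0.00573) with only the compared conditions, 1.27 (adjusted p = 0.0189) with the replicate block as well, and without either -Dox library. Leaving out 1 library at a time gave 1.25 to 1.45. DESeq2 gave an adjusted p of 0.0817. With the replicate block in the fit of all libraries Tshr had 2.25 (adjusted p = 0.00203) and Cep128 1.32 (adjusted p = 0.173). The block in a fit of only the compared conditions was chosen after seeing the data. On withdrawal Cep128 had -9.07 without the first -Dox library and -4.27 without the second, a fit in which the lone -Dox library is assumed to vary like the other groups. The first value rests on the library with 3 counts. Tshr ranged from -3.1 to -2.95.

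Of the listed genes, 14 were called lower on withdrawal. The replicate block with only those conditions called 39, and leaving out 1 library at a time called 4 to 14, with 8 and 7 without the first or second +Dox library and 5 and 4 without the first or second -Dox library. Of 22 listed genes called on withdrawal, 9 kept their call in every alternative, and of 67 in satellite cells, 51 did. Over all genes, 1142 were called on withdrawal, 742 with the replicate block, 2155 with only the compared conditions, 4017 with both, 2129 by DESeq2, and 488 to 1444 with 1 library left out. The replicate numbers were not shown to pair libraries.

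Asking that peaks cover 50% of a Pax7 site left 1 of 5 sites in H3K27Ac of -Dox and flag control cells, H3K4me1 of -Dox cells, H3K4me3 of +Dox cells and ATAC-seq of iPax7 myotubes, 2 in H3K4me1 of the flag control, and 0 in ATAC-seq of C2C12 myotubes and plain myoblasts and in H3K27me3 of Pax7-flag cells. Widening by 500 bases gave 1 of 5 for H3K27me3 in -Dox and 2 of 5 in the flag control. The stronger ATAC-seq peaks alone left 1 site in plain myoblasts and 3 in satellite cells, and 1 start in plain myoblasts. Within 250 bases, 1 start had a peak in ATAC-seq of C2C12 myotubes and plain myoblasts and in H3K4me1 of the flag control. The step with the stronger peaks alone was not run for histone lists, which carry no score. Of all recomputed values 188 were labelled the same, 23 moved, 4 newly passed, and 0 reversed. The same meant the same side of the adjusted p threshold for the satellite tests of the members. For the members' withdrawal changes it meant a shift under the SD between libraries. For counts of genes, sites or starts it meant an equal or similar count. Single listed genes that lost their call are not part of these totals. The causes of the moves were not tested.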

Other observations

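The Pax7 site next to the pair on the side of Cep128, at 92184546 to 92185076, had an ATAC-seq peak in 9 of the 10 lists, all but plain C2C12 myoblasts. Its fold enrichment was 31.6 in +Dox, 6.19, 6.66 and 6.84 at 12 h, 24 h and 3 days without Dox, 12.9 in satellite cells, 25.7 in myotubes from iPax7 cells and 19.3 in C2C12 myotubes. In Pax7-flag myoblasts it was 4.91 and in the flag control 3.07. Both myotube lists thus gave it a higher fold than the 3 lists of iPax7 cells without Dox, whereas sites 1, 4 and 5 within the pair had no peak in either myotube list. H3K27Ac touched it in +Dox and in Pax7-flag cells and not in -Dox or flag control cells. The lists are merged, so the differences were not tested.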
